A study of Mus musculus with 16 samples.

Results

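A set of 54 genes of mitosis was followed through the response of macrophages to LPS. They are the kinases, kinesin motors and kinetochore proteins that build the spindle and move the chromosomes, with the cyclins, checkpoint proteins, passenger complex, anaphase machinery and condensins that act beside them. A gene was taken where a probe on the array carried its name, and where several probes did, the probe with the highest mean signal stood for it. All 54 were found, on 100 probes, among 17657 genes tested.

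The macrophages were grown from the bone marrow of male C57BL/6Jax mice, either wild type (WT) or lacking the microRNA miR-155 (KO), and measured before LPS (0 h) and after 6, 12 or 24 h in LPS. LPS is the outer-membrane component of Gram-negative bacteria that macrophages sense through Tlr4. All 8 groups share a culture of 9 days with M-CSF at 10 ng/mL, a cytokine that drives both the survival and the division of macrophages, and the adherent cells were kept. LPS was given at 100 ng/mL, and each group has 2 samples on 1 single-colour array each. The labels do not say whether the 2 samples of a group came from separate cultures or animals, so p-values measure the spread between these samples only. Loss of miR-155 itself was not checked here.

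A dividing cell enters mitosis when cyclin-bound Cdk1 becomes active. Aurora and Polo-like kinases then mature the spindle poles, kinetochores assemble on the centromeres and catch microtubules, and the spindle checkpoint holds back the anaphase-promoting complex until every chromosome is attached. Most genes of this programme are transcribed late in the cell cycle and are nearly silent in cells that have left it, so that their RNA is widely used as a sign of proliferation. M-CSF-grown macrophages still divide, and LPS is known to stop macrophage proliferation.

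Start-proximal sequences of these genes are shown first because 2 short motifs recur in them. TTTGAA is the core of the cell cycle homology region, to which MuvB-type complexes bind, and CCAAT is the letter string bound by the factor NF-Y. RefSeq start regions on GRCm38.p6, from 250 bases before the start to 50 after it, were at hand for 45 of the 54 genes (50 start sites). TTTGAA or its reverse complement TTCAAA occurred in 35 of the 50, or 70.0%, against 17.9% of all 32851 start regions of that length. CCAAT on either strand occurred in 39, or 78.0%, against 37.4%, and both motifs in 30, or 60.0%, against 6.95%. Within 50 bases on either side of the start, TTTGAA was present in 31 (62.0%) against 4.94%. Matches of the 2 motifs were counted whether or not they touched, and a match describes the letters only. The 120 bases before the start are given below 5′ to 3′ on the gene's own strand, with TTTGAA or TTCAAA in capitals, for 8 genes whose RNA fell after LPS, from the anaphase, kinesin, condensin, topoisomerase, midzone and separase sets described further on.
Cdc20: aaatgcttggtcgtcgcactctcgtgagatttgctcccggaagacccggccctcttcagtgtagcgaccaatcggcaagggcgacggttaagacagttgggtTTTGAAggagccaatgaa
Ube2c: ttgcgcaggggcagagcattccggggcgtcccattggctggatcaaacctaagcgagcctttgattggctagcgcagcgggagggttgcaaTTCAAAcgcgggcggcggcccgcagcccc
Kif11: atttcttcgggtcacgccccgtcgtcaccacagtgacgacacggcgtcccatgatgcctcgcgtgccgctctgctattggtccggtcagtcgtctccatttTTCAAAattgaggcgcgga
Kif22: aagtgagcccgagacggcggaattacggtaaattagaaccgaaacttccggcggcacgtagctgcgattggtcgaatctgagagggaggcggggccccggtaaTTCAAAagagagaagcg
Ncapg: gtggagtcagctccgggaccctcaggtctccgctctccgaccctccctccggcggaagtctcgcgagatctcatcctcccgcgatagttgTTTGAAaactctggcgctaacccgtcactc
Top2a: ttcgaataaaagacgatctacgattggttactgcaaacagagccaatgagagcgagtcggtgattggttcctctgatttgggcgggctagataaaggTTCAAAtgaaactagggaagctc
Prc1: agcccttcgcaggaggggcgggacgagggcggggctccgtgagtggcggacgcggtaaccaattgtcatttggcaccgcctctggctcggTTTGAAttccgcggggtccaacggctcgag
Espl1: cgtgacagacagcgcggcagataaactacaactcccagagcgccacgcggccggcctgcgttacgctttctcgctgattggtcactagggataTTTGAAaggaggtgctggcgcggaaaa
The stretches lie, in that order, at chr4:118437344-118437463 (minus strand), chr2:164769809-164769928 (plus strand), chr19:37376262-37376381 (plus strand), chr7:127042421-127042540 (minus strand), chr5:45669805-45669924 (plus strand), chr11:99024190-99024309 (minus strand), chr7:80294356-80294475 (plus strand) and chr15:102296173-102296292 (plus strand). In each of the 8 the motif in capitals stands within 30 bases of the start, but these are examples and do not stand for the other genes. Plk1 and Aurka, which also fell, held it only after the start, and Kif2c held it 103 bases before the start.

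A pair of contrasting sequences belongs to Bub3, whose RNA passed no test against 0 h although its start region holds the motif, and to Pttg1, whose RNA rose and whose start region holds none.
Bub3: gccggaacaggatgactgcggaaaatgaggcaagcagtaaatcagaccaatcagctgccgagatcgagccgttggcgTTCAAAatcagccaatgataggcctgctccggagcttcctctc
Pttg1: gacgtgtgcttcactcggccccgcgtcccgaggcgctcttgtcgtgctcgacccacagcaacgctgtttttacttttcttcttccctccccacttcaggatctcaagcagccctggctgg
They lie at chr7:131560250-131560369 (plus strand) and chr11:43425982-43426101 (minus strand). The 13 genes with a start region but without TTTGAA in it are Birc5, Bub1, Ccnb1, Cdc25b, Cenpe, Cenph, Cenpk, Kif18a, Mad2l1, Ncaph, Nek2, Nuf2 and Pttg1. Birc5, Ccnb1, Cdc25b, Cenph, Kif18a, Nek2 and Nuf2 of these were lower at every time in both genotypes, so a fall was not limited to genes with these letters in the window. Whether the motif bears on the fall was not tested.

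Most of the mitotic genes were lower by a large factor within 6 h of LPS, and most were still low at 24 h. Levels here are log2 signals minus the array's 75th percentile, so 0 is the brightness of the probe at that percentile and each unit is a factor of 2. In WT cells 43 of the 54 were lower at 6 h than at 0 h, 45 at 12 h and 41 at 24 h, with median differences of -3.48, -4.04 and -3.23 (limma, Benjamini-Hochberg adjusted p under 0.05 over all genes). Across all genes tested 12.8%, 9.66% and 5.41% were lower at those times, with medians of 0.06, -0.01 and -0.03. In KO cells 43, 47 and 40 were lower, with medians of -3.56, -4.0 and -3.16, against 13.8%, 9.92% and 4.94% of all genes. A single member, Pttg1, was higher at each time in each genotype, against 12.6%, 9.68% and 5.61% of all genes in WT and 12.3%, 9.49% and 4.97% in KO. The 3 comparisons of a genotype share their 0 h arrays and are not independent of each other. In total RNA from a culture, fewer dividing cells and less RNA per cell cannot be told apart.

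All 54 probes were well above background on all 4 arrays at 0 h, so none entered through a group in which it was high after LPS alone. Cdc25c, Ttk, Cenpf and Anln were so on both arrays of a group only at 0 h. They passed the filter through the groups in which they were high, which favours a fall. On all 16 arrays 36 probes were well above background. Where a probe was well above background on neither array of an LPS group, the fall is given as "at least" a factor, against the dimmest signal that the array still resolved. With such genes at their bound the medians were -3.45, -3.85 and -3.22 in WT and -3.45, -3.91 and -3.16 in KO. For 47 of the 54, each of the 12 LPS arrays lay below each of the 4 arrays at 0 h. For Pttg1 every LPS array lay above them, and the other 6 genes overlapped. The share of all genes that separated in this way is not given here, so these counts describe the members only. In all, 36 genes were lower in all 6 comparisons, 12 in some of them and 6 in none. The shares of all genes given above are for single comparisons, and that for all 6 together is not given.

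**Figure D1:**
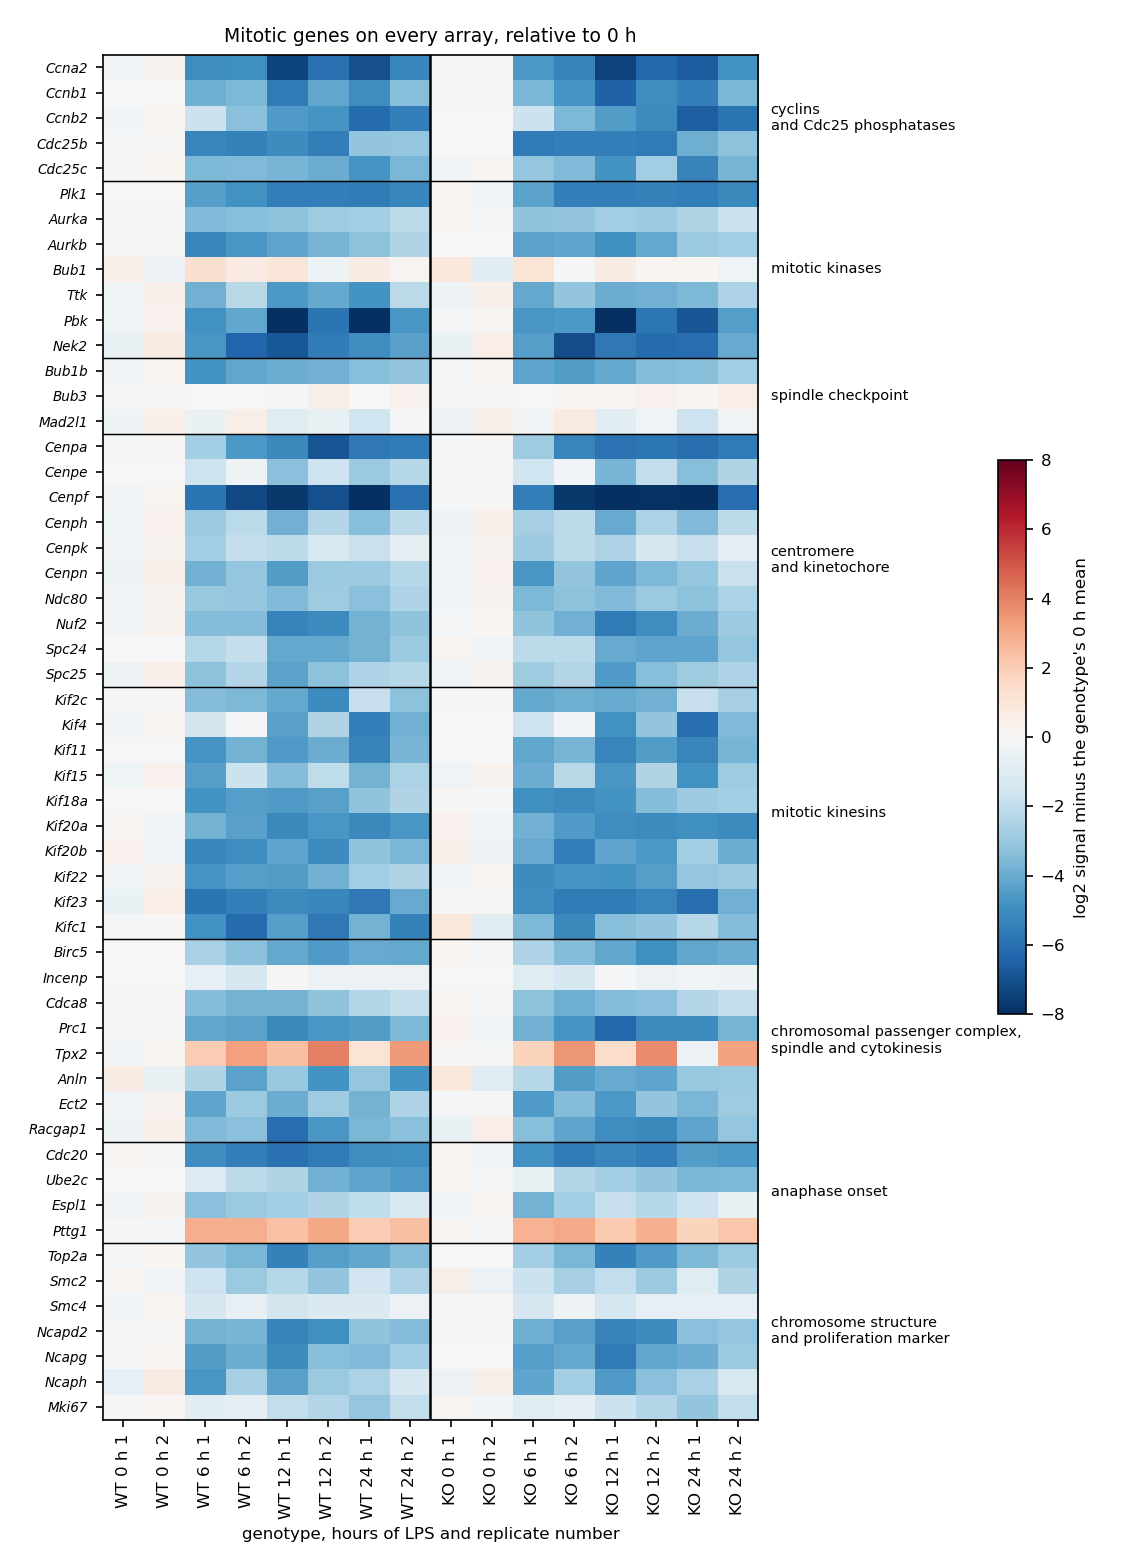
Level of each of the 54 mitotic genes on each of the 16 arrays, as the log2 difference from the mean of the genotype's 2 arrays at 0 h (colour scale), with genes grouped by role. Most genes are coloured as lower in the LPS columns, with Pttg1 and Tpx2 as the main exceptions in the opposite direction and Bub3 close to 0. Group means of Bub1, on its brighter probe, differed from 0 h by 0.97 to -0.07. Those of Mad2l1 were close to 0 h at 6 h and differed by -0.59 to -0.95 at 12 and 24 h.

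The arrays were scanned in 2 sessions of 8, and replicate 1 of every group lies in one session and replicate 2 in the other. The fall was of similar size within each. Median differences from 0 h in WT were -3.37, -4.12 and -3.34 in session 1 and -3.65, -4.07 and -3.07 in session 2. In KO they were -3.54, -4.38 and -3.46, and -3.67, -3.87 and -2.92. Where a 0 h array shared its slide with an LPS array of its genotype, the median ran from -2.92 (KO at 24 h) to -4.12 (WT at 12 h), with 49 or 50 of the 54 genes below 0. With the session as a term in the fit, 46, 49 and 49 genes were lower in WT, against 22%, 19% and 14.1% of all genes, and 3, 2 and 2 higher, against 23.6%, 18.6% and 13.3%. In KO 46, 48 and 48 were lower, against 22.7%, 18.8% and 12.5%, and 2, 2 and 1 higher, against 21%, 19.6% and 11.7%. Of the calls, 34 of 44, 39 of 46 and 29 of 42 in WT and 35 of 44, 35 of 48 and 30 of 41 in KO held in each of the 16 fits that left out 1 array.

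The mitotic cyclins and the Cdc25 phosphatases that switch on their kinase fell in all 6 comparisons, 5 genes of 5. Group medians were -3.74, -4.91 and -4.19 in WT and -4.19, -5.57 and -4.57 in KO at 6, 12 and 24 h. Cyclin A2 (Ccna2, probe at chr3:36463978-36464037 on mm9), which pairs with Cdk2 and Cdk1 from S phase onward, stood in WT at 1.91 and 2.52 at 0 h, -2.78 and -2.68 at 6 h, -5.12 and -3.78 at 12 h, and -4.84 and -3.02 at 24 h. In KO, Ccna2 stood at 1.99 and 2.14 at 0 h, -2.54 and -3.26 at 6 h, -5.34 and -4.19 at 12 h, and -4.59 and -2.74 at 24 h. No LPS array came near the 0 h arrays, and at 12 and 24 h the replicate 1 arrays were the lowest. At 12 h in KO 1 of the 2 arrays was well above background. The differences from 0 h were -4.95, -6.67 and -6.14 in WT and -4.96, -6.82 and -5.73 in KO, each ± 0.75 (SE; adjusted p = 0.000195 to 0.000931).

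Cdc25b (chr2:131024109-131024165), a phosphatase that removes the inhibitory phosphates from Cdk1 at the start of mitosis, behaved differently in time. Its WT arrays read 2.79 and 3.0 at 0 h, -2.38 and -2.54 at 6 h, -2.13 and -2.61 at 12 h, and -0.24 and -0.23 at 24 h. In KO, Cdc25b read 2.79 and 2.8 at 0 h, -2.88 and -2.72 at 6 h, -2.68 and -2.87 at 12 h, and -1.12 and -0.5 at 24 h. It was lowest at 6 and 12 h, and the 24 h arrays stood between those and the 0 h arrays, without overlap with either. The differences from 0 h were -5.36, -5.27 and -3.13 in WT and -5.6, -5.57 and -3.6 in KO, each ± 0.27 (adjusted p = 2.37e-06 to 9.1e-05). Cyclin B2 (Ccnb2), a partner of Cdk1, took the opposite course, with -2.53, -4.63 and -5.82 in WT and -2.67, -4.78 and -6.22 in KO (each ± 0.66), so that its lowest level came at 24 h. The Ccnb2 calls at 6 h were lost without replicate 2 of the 0 h or of the 6 h group and, in WT, without replicate 1 of the 0 h group (adjusted p up to 0.144 in WT and 0.109 in KO, with differences as small as -1.71 and -1.73). The phosphatase Cdc25c was not well above background after LPS and was at least 8.11-fold lower at 6 h in WT and at least 6.55-fold lower in KO.

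Of the 7 mitotic kinases, 6 fell in all 6 comparisons, and Bub1 is treated with the exceptions. Pbk (chr14:66436224-66436283), a MAP kinase kinase-like enzyme of mitotic cells, read in WT 0.26 and 0.94 at 0 h, -4.24 and -3.53 at 6 h, -7.99 and -5.26 at 12 h, and -7.81 and -4.04 at 24 h. In KO, Pbk read 0.6 and 0.85 at 0 h, -3.91 and -3.87 at 6 h, -7.46 and -5.05 at 12 h, and -6.13 and -3.71 at 24 h. The 2 arrays of the 12 and 24 h groups lay far apart, with replicate 1 the lower each time, and all LPS arrays lay below all 0 h arrays. At 12 and 24 h the probe was well above background on 1 of the 2 arrays in each genotype. Its differences were -4.49, -7.22 and -6.52 in WT and -4.61, -6.98 and -5.65 in KO, each ± 1.31 (adjusted p = 0.00356 to 0.029). The calls for Pbk at 6 h were lost without any of the 4 arrays compared (adjusted p up to 0.135 in WT and 0.103 in KO), and those at 24 h without replicate 1 of the 24 h group or replicate 2 of the 0 h group, and in KO also without replicate 1 of the 0 h group (up to 0.0732 in WT and 0.123 in KO).

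Nek2 (chr1:193656343-193656402), the kinase that loosens the link between the centrosomes, read in WT -1.29 and -0.06 at 0 h, -5.35 and -7.01 at 6 h, -7.48 and -6.25 at 12 h, and -5.64 and -5.03 at 24 h. In KO, Nek2 read -1.33 and -0.31 at 0 h, -5.21 and -7.94 at 6 h, -6.54 and -6.96 at 12 h, and -6.9 and -4.87 at 24 h. All 0 h arrays were above all LPS arrays. Nek2 was at least 31.9-fold lower at 6 h and at least 36.6-fold lower at 12 h in WT, and at least 28.3-fold lower at 12 h in KO, since its probe was not well above background there, and in KO 1 of the 2 arrays measured it at 6 and at 24 h. At 24 h it was lower by 4.66 in WT and 5.06 in KO on the log2 scale (each ± 0.98, adjusted p = 0.012 and 0.00861), and these 2 calls were lost without replicate 1 of the 24 h group, without replicate 2 of the 0 h group and, in WT, without replicate 2 of the 24 h group (up to 0.106 and 0.076). Plk1, the Polo-like kinase needed at almost every step of mitosis, fell by a more even amount, -4.63, -5.55 and -5.41 in WT and -4.88, -5.42 and -5.33 in KO (each ± 0.37, adjusted p = 1.34e-05 to 3.92e-05). The Aurora kinases, Aurka of the spindle poles and Aurkb of the centromeres and midzone, were nearer to their 0 h level at 24 h than at 6 h. Aurka differed from 0 h by -3.49, -3.06 and -2.48 in WT and -3.18, -2.86 and -2.06 in KO (each ± 0.32), and Aurkb by -4.92, -3.97 and -2.84 and -4.26, -4.51 and -2.85 (each ± 0.37), with Aurkb well above background on 1 of 2 arrays at 6 h in WT and at 12 h in KO. Ttk, the checkpoint kinase Mps1, was lower in all 6 comparisons, by 3.02 on the log2 scale at 6 h in WT (± 0.83, 1 of 2 arrays well above background) and at least 5.21-fold at 12 h. All of these calls but that of WT at 12 h were lost in some of the fits without 1 array, and all 6 passed with the session in the fit. At 6 h in WT the call was lost without either 0 h array or replicate 1 of the 6 h group (adjusted p up to 0.156). At 24 h in WT it was lost without either 0 h array or replicate 1 of the 24 h group (up to 0.154). In KO the call of Ttk was lost at 6 h without replicate 2 of the 0 h group or replicate 1 of the 6 h group (up to 0.065) and at 12 h without replicate 2 of the 0 h group (0.0656). At 24 h it held in 4 of the 16 fits without 1 array (up to 0.231).

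**Figure D2:**
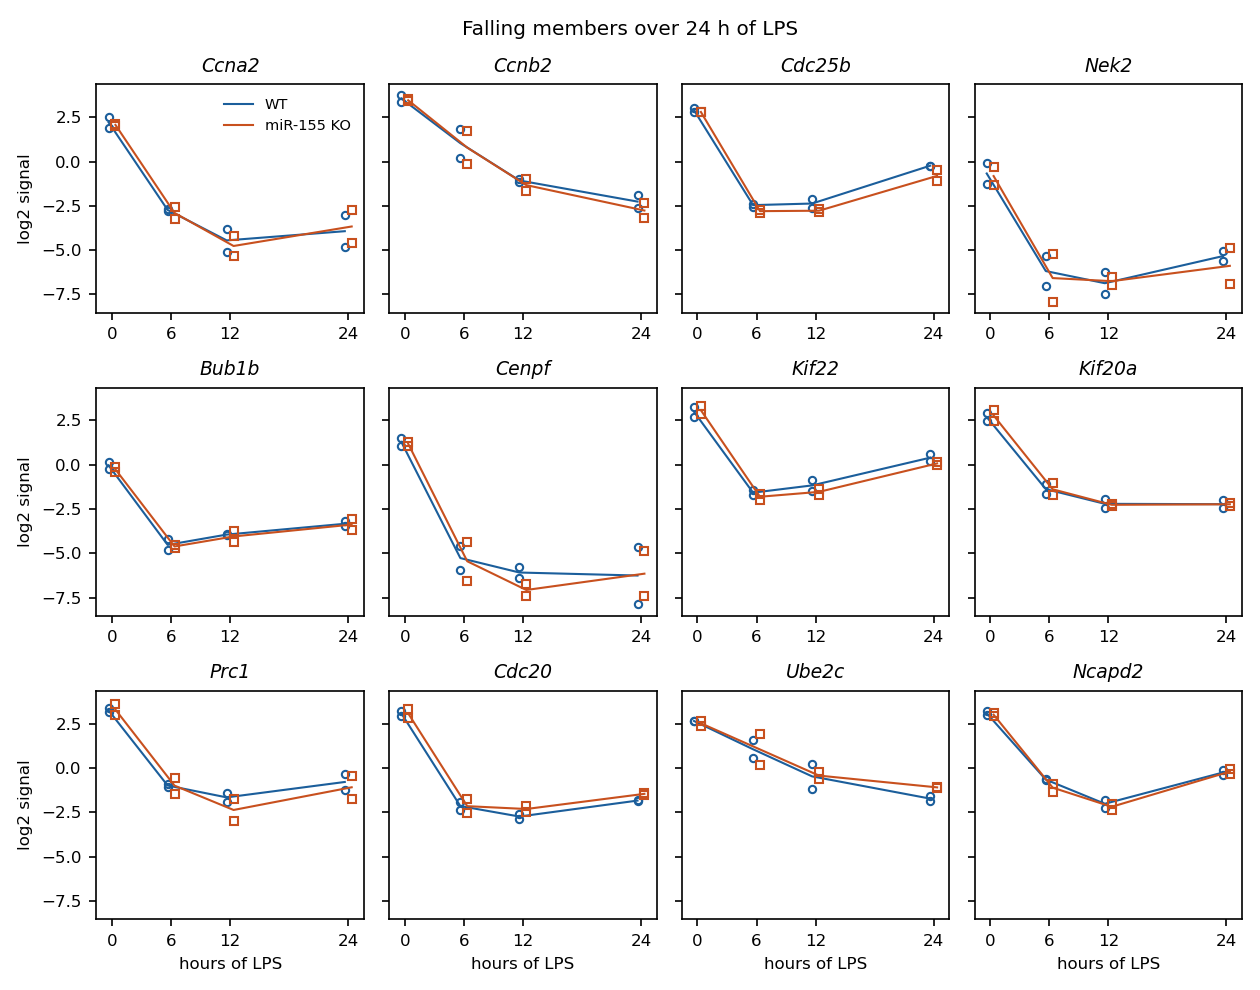
Levels of 12 of the mitotic genes at 0, 6, 12 and 24 h of LPS, as log2 signal minus the array's 75th percentile. Points are arrays (2 a group), lines join group means, and WT and KO are drawn in separate colours. Cdc25b and Kif22 turn upward by 24 h, Ccnb2 and Ube2c go on falling, and the WT and KO lines lie close together.

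Of the 3 genes grouped here as the spindle checkpoint, only Bub1b passed the test, in all 6 comparisons. Their target Cdc20 was also lower in all 6 and is given with anaphase onset. Bub1b (chr2:118466830-118466889) encodes BubR1, which binds and blocks Cdc20. Its WT arrays read -0.24 and 0.17 at 0 h, -4.83 and -4.21 at 6 h, -3.99 and -3.89 at 12 h, and -3.46 and -3.2 at 24 h. In KO, Bub1b read -0.41 and -0.12 at 0 h, -4.5 and -4.72 at 6 h, -4.38 and -3.71 at 12 h, and -3.7 and -3.05 at 24 h. The 0 h arrays stood clear of all others, and 24 h was the least low of the LPS times. The differences from 0 h were -4.49, -3.91 and -3.3 in WT and -4.35, -3.78 and -3.11 in KO, each ± 0.34 (adjusted p = 1.7e-05 to 0.000353). Its partners Bub3 and Mad2l1 are given with the exceptions.

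Among the 10 centromere and kinetochore genes, 9, 9 and 8 were lower at 6, 12 and 24 h in WT and 9, 10 and 9 in KO. Cenpf (chr1:191465934-191465993) is a large microtubule-binding protein of the outer kinetochore. In WT, Cenpf read 1.08 and 1.5 at 0 h, -4.57 and -5.96 at 6 h, -6.41 and -5.75 at 12 h, and -7.84 and -4.66 at 24 h. In KO, Cenpf read 1.07 and 1.3 at 0 h, -4.35 and -6.54 at 6 h, -7.43 and -6.7 at 12 h, and -7.41 and -4.88 at 24 h. Every LPS array was far below the 0 h arrays, and the 2 arrays of a group at 24 h lay well apart. The probe was well above background on 1 of 2 arrays at 6 and at 24 h in each genotype. At 12 h it was at least 141-fold lower in WT and at least 114-fold lower in KO, and at 6 h it differed by -6.55 in WT and -6.63 in KO, each ± 1.11 (adjusted p = 0.00177 and 0.00157).

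Cenpa (chr5:30976729-30976788), the histone H3 variant that marks the centromere, read in WT 2.42 and 2.6 at 0 h, -0.21 and -2.09 at 6 h, -2.63 and -4.39 at 12 h, and -3.21 and -3.07 at 24 h. In KO, Cenpa read 2.25 and 2.47 at 0 h, -0.47 and -2.92 at 6 h, -3.56 and -3.42 at 12 h, and -3.66 and -3.28 at 24 h. The 6 h arrays stood between the 0 h arrays and those of 12 and 24 h, and the 2 replicates at 6 h were well apart, with replicate 1 the higher. Its differences were -3.66, -6.02 and -5.65 in WT and -4.05, -5.85 and -5.83 in KO, each ± 0.82 (adjusted p = 0.000672 to 0.00807), and the WT call at 6 h was lost without replicate 2 of that group (adjusted p = 0.0743).

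The Ndc80 complex is the rod that holds the microtubule at the kinetochore, and its 4 subunits on the list were lower in all 6 comparisons. Nuf2 differed by -3.47, -5.22 and -3.52 in WT, Spc24 by -2.08, -4.1 and -3.35, Spc25 by -2.81, -3.79 and -2.39 and Ndc80 by -3.08, -3.2 and -2.91, with KO values within 0.5 of these at each time. Spc24, Spc25 and Nuf2 were lowest at 12 h in both genotypes. Of the inner kinetochore proteins, Cenph and Cenpn were lower in all 6, and Cenpk in 3, with 6 once the session was a term in the fit. The Cenph calls at 6 h were lost without any of the 4 arrays compared (adjusted p up to 0.157 in WT and 0.188 in KO) and those at 12 h without replicate 2 of the 0 h group or replicate 1 of the 12 h group (up to 0.105 and 0.0823). Those at 24 h held in 8 of the 16 fits without 1 array (up to 0.222 and 0.218). For Cenpn the 24 h call in WT was lost without any of the 4 arrays compared (up to 0.216). In KO it held in 4 of the 16 fits (up to 0.247). Spc25 lost its 24 h call without replicate 2 of the 0 h group or replicate 1 of the 24 h group and, in WT, without replicate 2 of the 24 h group (up to 0.118 in WT and 0.0775 in KO). Cenpk lost its 6 h calls without replicate 2 of the 0 h group or replicate 1 of the 6 h group (up to 0.0942 and 0.0715). Its KO call at 12 h held in 10 of the 16 fits (up to 0.232). Cenpe, the plus-end motor that carries chromosomes to the spindle equator, differed by only -1.05, -2.5 and -2.62 in WT and -0.88, -2.84 and -2.92 in KO (each ± 0.76) and passed in 3 comparisons, or 4 with the session in the fit. Those 3 calls held in 9 (WT at 12 h), 13 (KO at 12 h) and 10 (KO at 24 h) of the 16 fits, with adjusted p up to 0.232, 0.162 and 0.167.

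Of the 10 mitotic kinesins 8, 9 and 9 were lower at 6, 12 and 24 h in WT and 8, 10 and 8 in KO. Kif20a, the motor of the central spindle also called MKLP2, read in WT 2.93 and 2.45 at 0 h, -1.11 and -1.64 at 6 h, -2.46 and -1.95 at 12 h, and -2.46 and -1.99 at 24 h. In KO, Kif20a read 3.11 and 2.45 at 0 h, -1.04 and -1.73 at 6 h, -2.2 and -2.32 at 12 h, and -2.14 and -2.32 at 24 h. The 12 and 24 h arrays were alike and lower than those at 6 h, and none reached the 0 h arrays. The differences were -4.07, -4.9 and -4.92 in WT and -4.17, -5.04 and -5.01 in KO, each ± 0.37 (adjusted p = 2.21e-05 to 4.64e-05).

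Kif23 (chr9:61767733-61768853) forms, with Racgap1, the centralspindlin complex that positions the cleavage furrow. In WT, Kif23 read 0.43 and 1.44 at 0 h, -4.91 and -4.55 at 6 h, -4.16 and -4.27 at 12 h, and -4.76 and -3.12 at 24 h. In KO, Kif23 read 0.22 and 0.39 at 0 h, -4.66 and -5.29 at 6 h, -5.28 and -4.97 at 12 h, and -5.72 and -3.53 at 24 h. The LPS times overlapped each other, except that in WT the 12 h arrays stood above those of 6 h, and all lay clear of 0 h. Differences were -5.67, -5.15 and -4.87 in WT and -5.28 at 6 h and -4.93 at 24 h in KO, each ± 0.7 (adjusted p = 0.000289 to 0.00145), and at 12 h in KO the fall was at least 43.1-fold. At 6 and at 24 h in KO 1 of the 2 arrays was well above background.

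Kif22 (chr7:134171293-134171352), a chromokinesin that pushes chromosome arms toward the equator, had one of the clearest turns. Its WT arrays read 2.7 and 3.28 at 0 h, -1.72 and -1.43 at 6 h, -1.48 and -0.85 at 12 h, and 0.22 and 0.58 at 24 h. In KO, Kif22 read 2.86 and 3.29 at 0 h, -1.97 and -1.64 at 6 h, -1.71 and -1.35 at 12 h, and 0.0 and 0.15 at 24 h. The 24 h arrays were above all 6 and 12 h arrays and below all 0 h arrays. The differences from 0 h were -4.57, -4.16 and -2.59 in WT and -4.88, -4.61 and -3.0 in KO, each ± 0.33 (adjusted p = 1.03e-05 to 0.000692).

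Kif18a (chr2:109181416-109181475), which damps the oscillation of aligned chromosomes, read in WT -2.59 and -2.63 at 0 h, -7.42 and -6.99 at 6 h, -7.17 and -6.97 at 12 h, and -5.86 and -5.02 at 24 h. In KO, Kif18a read -2.71 and -2.88 at 0 h, -7.68 and -7.86 at 6 h, -7.59 and -6.28 at 12 h, and -5.72 and -5.54 at 24 h. The 24 h arrays stood above the 6 and 12 h arrays, but the probe was not well above background at 6 and 12 h. It was at least 8.32-fold and 9.54-fold lower at 6 and 12 h in WT and at least 7.41-fold and 7.21-fold lower in KO, and at 24 h, where 1 of the 2 WT arrays was well above background, it was lower by 2.83 in each genotype (± 0.42, adjusted p = 0.00167 and 0.00177).

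The other kinesins included Kif11, which pushes the spindle poles apart, with -4.25, -4.24 and -4.55 in WT (± 0.62, with 1 of 2 arrays well above background at 6 and at 24 h) and at least 20.8-fold lower at 12 h in KO, and Kif2c, a microtubule depolymerase, at least 13.7-fold lower at 6 h in KO. Kif4, the other chromokinesin, was late: it differed by -0.8, -3.38 and -4.68 in WT and -0.95, -4.0 and -4.77 in KO (each ± 1.0), and did not pass at 6 h (adjusted p = 0.618 and 0.56). Its WT call at 12 h was lost without replicate 1 of the 12 h group or any of the 4 arrays at 0 h (up to 0.202). Its other 3 calls were lost without either 0 h array of the genotype or replicate 1 of the LPS group (up to 0.117). Kif15 passed in 1 comparison of 6, KO at 12 h, which held in 7 of the 16 fits without 1 array (adjusted p up to 0.244), and in 6 with the session in the fit. Kifc1, a minus-end motor, was lower in 5 of 6 (6 with the session in the fit), with the limit that another probe of that name matches the near-identical gene Kifc5b and that signals of the pair may mix. The Kifc1 calls were lost for WT at 24 h without replicate 2 of that group (adjusted p = 0.0613) and for KO at 12 h without replicate 1 of the 0 h group or either array of the 12 h group (up to 0.121).

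In the group of the chromosomal passenger complex, spindle and cytokinesis 7, 6 and 6 of 8 genes were lower in WT and 7, 6 and 5 in KO. Prc1 (chr7:87461038-87461093), which bundles the microtubules of the midzone, read in WT 3.37 and 3.13 at 0 h, -0.93 and -1.05 at 6 h, -1.93 and -1.39 at 12 h, and -1.24 and -0.34 at 24 h. In KO, Prc1 read 3.61 and 2.97 at 0 h, -0.54 and -1.45 at 6 h, -3.01 and -1.73 at 12 h, and -1.75 and -0.43 at 24 h. All 0 h arrays were above all LPS arrays, and the lowest group means were those at 12 h. The differences were -4.24, -4.91 and -4.04 in WT and -4.28, -5.66 and -4.38 in KO, each ± 0.57 (adjusted p = 0.000112 to 0.00126).

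Racgap1 (chr15:99451517-99451576), the partner of Kif23 in centralspindlin, read in WT -0.94 and -0.1 at 0 h, -4.06 and -3.84 at 6 h, -6.62 and -5.16 at 12 h, and -4.17 and -3.89 at 24 h. In KO, Racgap1 read -1.14 and -0.03 at 0 h, -3.98 and -4.83 at 6 h, -5.54 and -5.75 at 12 h, and -4.78 and -3.68 at 24 h. Its 12 h arrays lay below those of 6 and 24 h, which overlapped, and 1 of the 2 was well above background in each genotype. Differences were -3.43, -5.37 and -3.52 in WT and -3.82, -5.06 and -3.64 in KO, each ± 0.58 (adjusted p = 0.000175 to 0.00337).

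The passenger complex places Aurora B first on centromeres and then on the midzone. Its survivin subunit Birc5 differed by -2.96, -4.32 and -4.06 in WT (± 0.4) and its borealin subunit Cdca8 by -3.6, -3.49 and -2.11 (± 0.33), and both passed in all 6. The scaffold Incenp fell far less, by 1.02 ± 0.31 at 6 h in WT (adjusted p = 0.0325) and 1.17 in KO (adjusted p = 0.0172), with differences between -0.20 and -0.48 at 12 and 24 h that did not pass. Both Incenp calls were lost without either 0 h array or replicate 2 of the 6 h group (adjusted p up to 0.232 in WT, where the difference shrank to -0.67, and 0.111 in KO). Ect2, which acts at the cleavage furrow, was lower in all 6, and Anln, a furrow scaffold, in 5 (6 with the session in the fit), at least 7.42-fold at 6 h in WT. Ect2 lost its 24 h calls without replicate 2 of the 0 h group or replicate 1 of the 24 h group and, in KO, without replicate 1 of the 0 h group (adjusted p up to 0.109 in WT and 0.085 in KO). None of the 5 Anln calls held in all 16 fits without 1 array (13 or 14 each, adjusted p up to 0.227), and each of the 5 was lost without replicate 1 of the 0 h group.

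Of the 4 genes of anaphase onset, 2, 3 and 2 were lower at 6, 12 and 24 h in each genotype, and 1, Pttg1, was higher throughout. Cdc20 (chr4:118105536-118105595) activates the anaphase-promoting complex. Its WT arrays read 3.22 and 2.95 at 0 h, -1.91 and -2.39 at 6 h, -2.89 and -2.59 at 12 h, and -1.87 and -1.81 at 24 h. In KO, Cdc20 read 3.32 and 2.84 at 0 h, -1.77 and -2.54 at 6 h, -2.15 and -2.48 at 12 h, and -1.4 and -1.52 at 24 h. The 4 arrays at 0 h were tightly placed and all 12 LPS arrays lay far under them. The differences were -5.23, -5.82 and -4.93 in WT and -5.23, -5.4 and -4.53 in KO, each ± 0.32 (adjusted p = 6.03e-06 to 4.3e-05).

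Ube2c (chr2:164598016-164598075), the ubiquitin-conjugating enzyme of the same complex, read in WT 2.67 and 2.63 at 0 h, 1.56 and 0.55 at 6 h, 0.22 and -1.17 at 12 h, and -1.57 and -1.89 at 24 h. In KO, Ube2c read 2.65 and 2.39 at 0 h, 1.91 and 0.18 at 6 h, -0.22 and -0.64 at 12 h, and -1.14 and -1.05 at 24 h. The arrays stepped down from each time to the next, without overlap, in both genotypes. Differences were -1.6, -3.13 and -4.38 in WT and -1.47, -2.95 and -3.61 in KO, each ± 0.59. The 6 h values did not pass (adjusted p = 0.0726 and 0.0951) except with the session in the fit (0.0126 and 0.0186), and the KO call at 12 h was lost without replicate 2 of that group (adjusted p = 0.0504).

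Separase (Espl1, chr15:102153644-102153882), the protease that cuts cohesin, read in WT -0.83 and -0.21 at 0 h, -3.84 and -3.51 at 6 h, -3.23 and -2.92 at 12 h, and -2.56 and -1.73 at 24 h. In KO, Espl1 read -1.01 and -0.61 at 0 h, -4.62 and -3.54 at 6 h, -2.64 and -3.11 at 12 h, and -2.48 and -1.41 at 24 h. Arrays were lowest at 6 h and stood between there and the 0 h level at 24 h. The differences were -3.15, -2.55 and -1.62 in WT and -3.28, -2.07 and -1.13 in KO, each ± 0.48. Those at 24 h did not pass (adjusted p = 0.0578 and 0.196), except with the session in the fit (0.00672 and 0.0366), and the KO call at 12 h was lost without replicate 2 of the 0 h or of the 12 h group (up to 0.0982).

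Condensin compacts the chromosomes, and the RNA of several of its subunits fell by unequal amounts. Of the 7 chromosome-structure genes 5, 6 and 4 were lower at 6, 12 and 24 h in each genotype. Ncapd2 (chr6:125118012-125118066), a condensin I subunit, read in WT 2.98 and 3.19 at 0 h, -0.69 and -0.62 at 6 h, -2.24 and -1.8 at 12 h, and -0.14 and -0.37 at 24 h. In KO, Ncapd2 read 3.09 and 2.92 at 0 h, -0.89 and -1.33 at 6 h, -2.35 and -2.03 at 12 h, and -0.34 and -0.07 at 24 h. The 12 h arrays were the lowest in both genotypes, without overlap with those of 6 or 24 h. The differences from 0 h were -3.74, -5.11 and -3.34 in WT and -4.11, -5.2 and -3.21 in KO, each ± 0.27 (adjusted p = 6.03e-06 to 8.59e-05).

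Ncapg (chr5:46091297-46091355), another condensin I subunit, read in WT 1.54 and 1.79 at 0 h, -2.83 and -2.28 at 6 h, -3.34 and -1.75 at 12 h, and -1.86 and -1.05 at 24 h. In KO, Ncapg read 1.6 and 1.52 at 0 h, -2.87 and -2.51 at 6 h, -4.11 and -2.57 at 12 h, and -2.43 and -1.39 at 24 h. The 12 h arrays overlapped those of 6 h. The 24 h arrays lay above those of 6 h in each genotype and above those of 12 h in KO, but 24 h against 6 h did not pass. All LPS arrays lay under the 0 h arrays. Differences were -4.22, -4.21 and -3.12 in WT and -4.25, -4.9 and -3.47 in KO, each ± 0.62 (adjusted p = 0.000461 to 0.00918), and the WT call at 24 h was lost without replicate 2 of the 0 h group or replicate 1 of the 24 h group (up to 0.0696). Top2a, which untangles sister DNA, fell by a similar amount, with -3.4, -4.9 and -3.82 in WT and -3.22, -4.96 and -3.3 in KO (each ± 0.48). Ncaph and Smc2 were lower in 4 comparisons each, and in 6 with the session in the fit. The 4 Ncaph calls were each lost without replicate 2 of the 0 h group or replicate 1 of the LPS group (adjusted p up to 0.123). The 4 Smc2 calls were each lost without replicate 1 of the 0 h group or replicate 2 of the LPS group, and 3 of them, all but KO at 12 h, without replicate 2 of the 0 h group (up to 0.195). Mki67, the proliferation marker Ki-67, moved late and less: it differed by -0.84, -2.14 and -2.55 in WT and -0.88, -2.03 and -2.56 in KO (each ± 0.47) and passed at 12 and 24 h only. The Mki67 calls were lost in WT without replicate 2 of the 0 h group (up to 0.0757) and at 12 h also without replicate 2 of that group, and in KO at 12 h without replicate 1 of the 0 h or replicate 2 of the 12 h group (up to 0.105).

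The remaining 6 genes were not lower in any comparison. Pttg1 (chr11:43233801-43233860) encodes securin, the inhibitor that holds separase until anaphase. Its WT arrays read 3.75 and 3.51 at 0 h, 6.56 and 6.54 at 6 h, 5.95 and 6.7 at 12 h, and 5.63 and 6.06 at 24 h. In KO, Pttg1 read 3.8 and 3.48 at 0 h, 6.41 and 6.7 at 6 h, 5.74 and 6.51 at 12 h, and 5.41 and 5.87 at 24 h. All 12 LPS arrays lay above all 4 arrays at 0 h. It rose by 2.92, 2.69 and 2.22 in WT and 2.92, 2.48 and 2.0 in KO, each ± 0.36 (adjusted p = 0.000273 to 0.0057), and the KO call at 24 h was lost without replicate 2 of the 0 h or of the 24 h group (up to 0.0584). Securin and separase, partners in 1 complex, thus moved in opposite directions at 6 and 12 h in both genotypes.

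Tpx2 (chr2:152719476-152719535), which activates Aurora A on spindle microtubules, read in WT 0.94 and 1.41 at 0 h, 3.19 and 4.46 at 6 h, 3.56 and 5.19 at 12 h, and 2.29 and 4.6 at 24 h. In KO, Tpx2 read 1.1 and 0.96 at 0 h, 2.78 and 4.59 at 6 h, 2.49 and 4.82 at 12 h, and 0.57 and 4.22 at 24 h. Replicate 2 was the higher at every LPS time, and 1 LPS array, replicate 1 of KO at 24 h, lay below the 0 h arrays. The differences of 2.65, 3.2 and 2.27 in WT and 2.66, 2.63 and 1.37 in KO, each ± 1.26, did not pass (adjusted p = 0.108 to 0.628). With the session in the fit 5 of the 6 passed as higher (0.00691 to 0.0432), and KO at 24 h did not (0.205).

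The condensin subunit Smc4 (chr3:68838453-68838512) read in WT 2.31 and 2.71 at 0 h, 1.14 and 1.86 at 6 h, 1.05 and 1.36 at 12 h, and 1.38 and 2.01 at 24 h. In KO, Smc4 read 2.37 and 2.5 at 0 h, 1.07 and 2.04 at 6 h, 1.03 and 1.78 at 12 h, and 1.79 and 1.77 at 24 h. All LPS arrays were below all 0 h arrays, by a small margin. Its differences of -1.01, -1.3 and -0.81 in WT and -0.88, -1.03 and -0.65 in KO, each ± 0.41, did not pass (adjusted p = 0.0505 to 0.422), and 5 of 6 passed as lower with the session in the fit (0.00291 to 0.0377, with 0.0887 for KO at 24 h).

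Bub3 (chr7:138712221-138714437), a WD-repeat protein that carries Bub1 and BubR1 to kinetochores, read in WT 3.48 and 3.63 at 0 h, 3.57 and 3.57 at 6 h, 3.44 and 4.05 at 12 h, and 3.58 and 3.92 at 24 h. In KO, Bub3 read 3.48 and 3.63 at 0 h, 3.56 and 3.78 at 6 h, 3.76 and 3.92 at 12 h, and 3.73 and 4.11 at 24 h. In WT all groups overlapped, and in KO the 12 and 24 h arrays stood slightly above those of 0 h. Its differences were 0.02, 0.19 and 0.2 in WT and 0.11, 0.28 and 0.36 in KO, each ± 0.28 (adjusted p = 0.527 to 0.978).

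Mad2l1 (chr6:66488986-66489045), the Mad2 protein that captures Cdc20, read in WT -0.38 and 0.44 at 0 h, -0.48 and 0.47 at 6 h, -0.93 and -0.53 at 12 h, and -1.56 and -0.11 at 24 h. In KO, Mad2l1 read -0.53 and 0.43 at 0 h, -0.27 and 0.66 at 6 h, -0.89 and -0.4 at 12 h, and -1.68 and -0.32 at 24 h. The 0 h and 6 h arrays overlapped and replicate 1 was the lower in every group. Its differences were -0.04, -0.76 and -0.87 in WT and 0.25, -0.59 and -0.95 in KO, each ± 0.64 (adjusted p = 0.465 to 0.978), and with the session in the fit WT at 12 and 24 h and KO at 24 h passed as lower (0.0461, 0.0359 and 0.0274). A second probe of Bub3 and of Mad2l1 each gave differences within 0.5 of these.

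Bub1, the checkpoint kinase that recruits the checkpoint proteins to kinetochores, depends on the probe. The brighter probe, at chr2:127626326-127626385, read in WT -0.24 and -1.12 at 0 h, 0.6 and -0.03 at 6 h, 0.26 and -1.11 at 12 h, and -0.11 and -0.46 at 24 h. In KO, this Bub1 probe read 0.32 and -1.41 at 0 h, 0.56 and -0.64 at 6 h, 0.03 and -0.32 at 12 h, and -0.37 and -0.86 at 24 h. Its LPS groups overlapped with 0 h, except at 6 h in WT, where they stood above it. The differences of 0.97, 0.25 and 0.39 in WT and 0.51, 0.4 and -0.07 in KO, each ± 0.65, did not pass (adjusted p = 0.327 to 0.982), except as higher at 6 h in WT with the session in the fit (0.0416). The other probe, at chr2:127626988-127627047 on mm9, has a Bub1 accession as well, and it read 0.17 and 0.23 at 0 h and -3.12 and -3.61 at 6 h in WT, and 0.30 and -0.12 at 0 h and -3.12 and -3.92 at 6 h in KO. On that probe the mean differences were -3.56, -5.53 and -4.03 in WT and -3.60, -6.30 and -3.59 in KO, with no overlap between 0 h and LPS, so the 2 probes of Bub1 disagree. Over all members with several probes, Bub1 included, 35 of 37 further probes that were well above background at 0 h lay below 0 h in all 6 comparisons. The exceptions were the second probes of Bub3 and Mad2l1, while the third probe of Bub3 is among the 35 with small differences. These probes were picked by their signal at 0 h, and the share over all probes is not given.

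**Figure D3:**
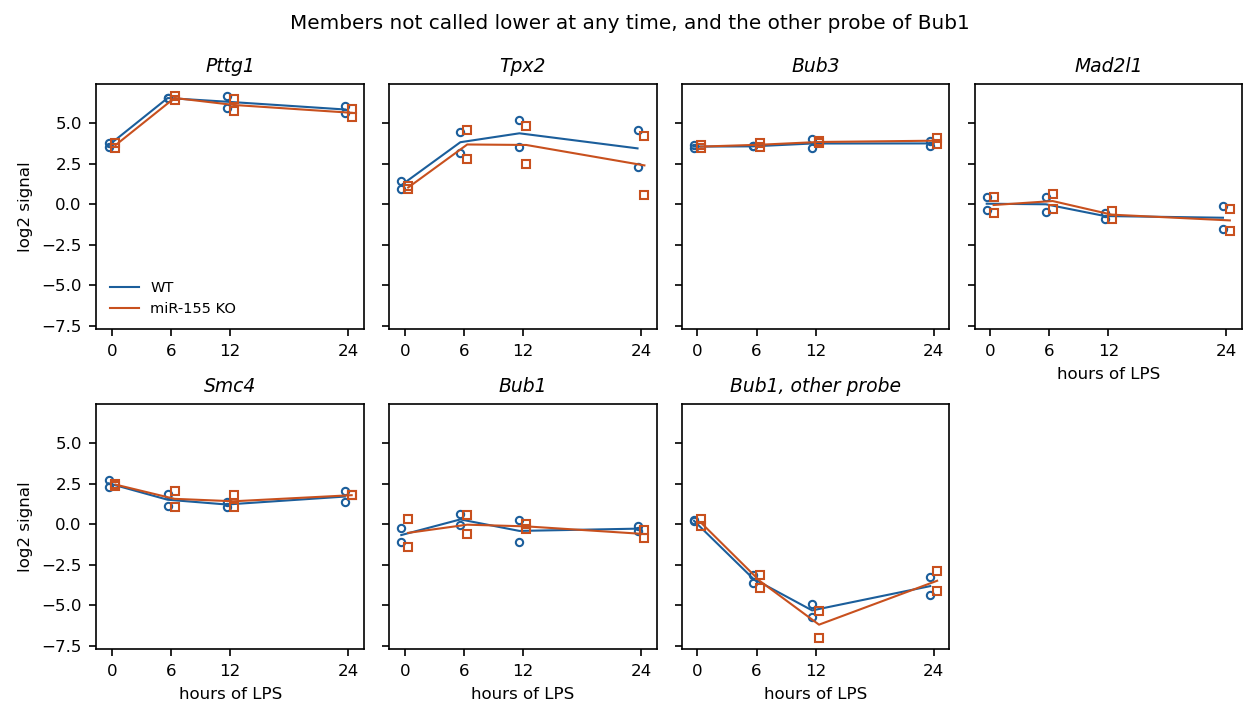
Levels of the 6 mitotic genes that were not lower in any comparison, with the second probe of Bub1, at 0, 6, 12 and 24 h of LPS, as log2 signal minus the array's 75th percentile. Points are arrays and lines join group means of WT and KO. Pttg1 lies higher on all LPS arrays, Bub3 is flat, and the 2 probes of Bub1 part after LPS.

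The course after 6 h differed between members. The lowest group mean among the LPS times was taken for every member, including those that rose or stayed flat. In WT it came at 6 h for 17 genes, at 12 h for 23 and at 24 h for 14. In KO these counts were 16, 27 and 11, with the same time in both genotypes for 42. For Pttg1, Tpx2 and Bub3 in both genotypes, and Bub1 in WT, the mean before LPS was lower still. Among members called lower in at least 1 comparison with cells before LPS, the counts were 16, 21 and 11 in WT. In KO they were 15, 26 and 7, with the same time in both genotypes for 37. From 6 to 12 h only Spc24 (-2.02 ± 0.38, adjusted p = 0.0356) and Ncapd2 (-1.36 ± 0.27, adjusted p = 0.0398) fell further in WT and only Spc24 in KO (-2.0, adjusted p = 0.0335), against 0.646% and 0.64% of all genes lower and 1.03% and 1.02% higher. From 12 to 24 h Cdc25b rose by 2.14 (adjusted p = 0.0183) and Ncapd2 by 1.77 (0.0370) in WT, and by 1.97 (0.0196) and 1.98 (0.0189) in KO, against 0.0566% and 0.085% of all genes higher and 0.13% and 0.153% lower. None of these calls held in every fit without 1 array. With the session in the fit 8 genes were lower and 2 higher from 6 to 12 h, in each genotype (5.17% and 5.46% of all genes in WT, 5.02% and 6.2% in KO), and 10 higher from 12 to 24 h in each (1.78% and 2.66%).

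Set against 6 h, 24 h had 5 genes higher and 4 lower in WT, where 5.61% and 4.86% of all genes were, and 9 higher and 5 lower in KO, where 7.07% and 5.81% were. These counts are 9.26% and 7.41% of the members in WT, near the background shares, and 16.7% and 9.26% in KO. With the session in the fit the counts were 12 and 8 in WT (22.2% and 14.8%, background 13.9% and 16.1%) and 16 and 9 in KO (29.6% and 16.7%, background 16.2% and 15.9%). The count in WT ranged from 2 without replicate 1 of the 6 h group to 10, with 5 without replicate 2 of the 6 h group and 4 without either 24 h array. In KO it was 4 and 5 without replicates 1 and 2 of the 6 h group, and 6 and 8 without those of the 24 h group. The median over the 54 was 0.06 in WT and 0.2 in KO (-0.17 and -0.11 over all genes), and its direction differed between the sessions. In session 1 it was -0.3 in WT and -0.77 in KO, with 29 genes below 0 in each, and in session 2 it was 0.22 and 0.74, with 19 and 18 below 0.

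Cdc25b was higher at 24 h than at 6 h by 2.23 ± 0.27 in WT (adjusted p = 0.00132) and 1.99 ± 0.27 in KO (adjusted p = 0.00185). Kif22 was higher by 1.98 ± 0.33 in WT (adjusted p = 0.00501) and 1.88 ± 0.33 in KO (adjusted p = 0.00511). These 2 alone passed in each of the 16 fits without 1 array in both genotypes. Aurkb rose by 2.08 ± 0.37 in WT (adjusted p = 0.00658) and 1.41 ± 0.37 in KO (adjusted p = 0.032), and Cdca8 by 1.49 ± 0.33 in WT (adjusted p = 0.0184) and 1.47 ± 0.33 in KO (adjusted p = 0.0165). Without 1 array the Aurkb call was lost in 2 of 16 fits in WT (replicate 1 of the 6 h or 2 of the 24 h group, adjusted p up to 0.0606) and without any of the 4 arrays compared in KO (up to 0.134). The Cdca8 call was lost without any of the 4 arrays compared in WT (up to 0.117) and without replicate 2 of either group in KO (up to 0.112). The difference for Kif18a was 1.77 ± 0.42 in WT (adjusted p = 0.0237) and 2.14 ± 0.42 in KO (adjusted p = 0.0087), but with the 6 h probe not above background the rise is only at least 1.17-fold in WT and at least 1.04-fold in KO. With normexp on the local background it turned to -0.11 in WT, or to -0.22 (WT) and -0.23 (KO) with that background capped. The Kif18a call was lost without either 6 h array or replicate 2 of the 24 h group in WT (up to 0.153) and without replicate 2 of the 6 h group in KO (0.052). In KO alone Aurka (1.12, adjusted p = 0.0444), Bub1b (1.23, 0.0406), Espl1 (2.14, 0.0168) and Kif2c (at least 2.83-fold, 0.0352) passed as higher. Those 4 calls held in 3, 4, 14 and 11 of the 16 fits. In the test of the genotype difference for 24 h against 6 h 0 of 54 passed, and the share of all genes is not given here.

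Going the other way, Kif4 differed between 24 h and 6 h by -3.88 ± 1.0 in WT (adjusted p = 0.0341) and -3.82 ± 1.0 in KO (adjusted p = 0.0318). Ccnb2 differed by -3.29 ± 0.66 in WT (adjusted p = 0.0117) and -3.55 ± 0.66 in KO (adjusted p = 0.00689). Ube2c differed by -2.78 ± 0.59 in WT (adjusted p = 0.0149) and -2.14 ± 0.59 in KO (adjusted p = 0.0382), and Mki67 by -1.71 ± 0.47 in WT (adjusted p = 0.0439) and -1.68 ± 0.47 in KO (adjusted p = 0.0413). The Kif4 calls held in 12 (WT) and 13 (KO) of the 16 fits without 1 array (adjusted p up to 0.22 and 0.211), being lost without either 6 h array or replicate 1 of the 24 h group and, in WT, replicate 2 of the 24 h group. Those of Ccnb2 were lost without replicate 1 of the 6 h or of the 24 h group (up to 0.0956 and 0.0591). Those of Ube2c held in 13 and 5 fits (up to 0.113 and 0.249) and those of Mki67 in 3 and 5 (up to 0.281 and 0.26). Each of the 4 was less far below 0 h at 6 h than the median member. Spc24 was lower in KO as well (-1.5, adjusted p = 0.0292), a call that was lost without either 6 h array or replicate 1 of the 24 h group (up to 0.196). Every member that fell had a 24 h mean below its 0 h mean. The nearest was Incenp, with -0.48 in WT and -0.36 in KO, followed by Cenpk and Espl1. None of these passed at 24 h without the session in the fit, so their 24 h and 0 h levels could not be told apart there.

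**Figure D4:**
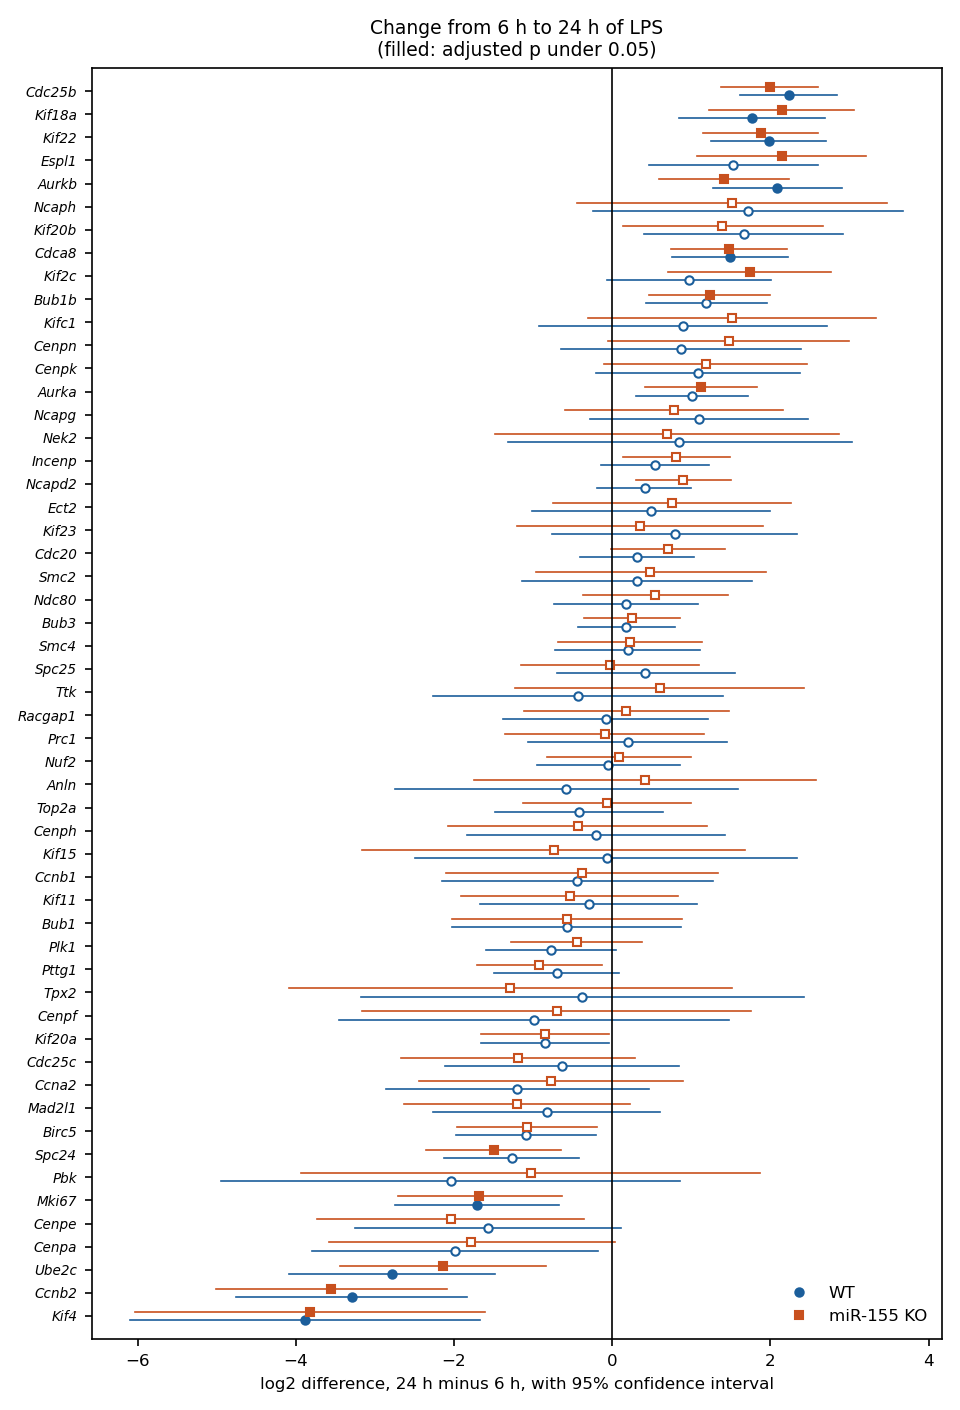
Difference between 24 h and 6 h of LPS for each of the 54 mitotic genes (log2, WT and KO), with 95% confidence intervals from limma. Filled points passed at an adjusted p under 0.05. Cdc25b (2.23 and 1.99) and Kif22 (1.98 and 1.88) lie to the right of 0 and Kif4, Ccnb2 and Ube2c to the left.

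No mitotic gene passed between KO and WT. At 0, 6, 12 and 24 h 0 of the 54 were called in either direction, against 0%, 0%, 0.00566% each way and 0% of all genes, and at an unadjusted p under 0.05 the count was 0 at each time too. Median KO minus WT differences were -0.11, -0.14, -0.17 and -0.15 with a median SE of 0.58. Averaged over the 4 times 44 genes were below 0 (median -0.17, from -0.61 to 0.37) and none passed (0.00566% lower and 0.0113% higher among all genes). Only Cdc25b, lower in KO by 0.36 ± 0.14 on the log2 scale (95% interval -0.66 to -0.05), was under 0.05 there before adjustment, and its limma adjusted p was 1.0. With the session in the fit the counts at an unadjusted p under 0.05 were 1, 0, 2 and 1 at the 4 times in turn. For the average it was 4. After adjustment 0 passed (0% to 0.017% of all genes each way). The 95% intervals of the averaged differences differed in width between genes, from -1.91 to 0.88 for Tpx2 and -1.08 to 1.82 for Pbk, the lowest and highest bounds, to -0.46 to 0.14 for Ncapd2.

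The size of the LPS response did not differ detectably between genotypes either. In the joint F test over the 3 times 0 of 54 passed, 0 had an unadjusted p under 0.05, and the smallest was 0.215 for Aurkb. In the single tests of the response at 6, 12 and 24 h against 0 h, 0 of 54 passed as well, with a median SE of 0.82. The share of all genes that passed in these tests is not given here, so the counts describe the members only. The widest gap at 0 h was for Kifc1, at 1.51 and -0.25 in KO and 1.78 and 1.95 in WT, a difference of -1.23 ± 0.82 (95% interval -3.06 to 0.60), set by the replicate 2 array of KO. At 24 h the widest were Tpx2 (-1.05 ± 1.26) and Pbk (1.0 ± 1.31), both smaller than their SE.

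**Figure D5:**
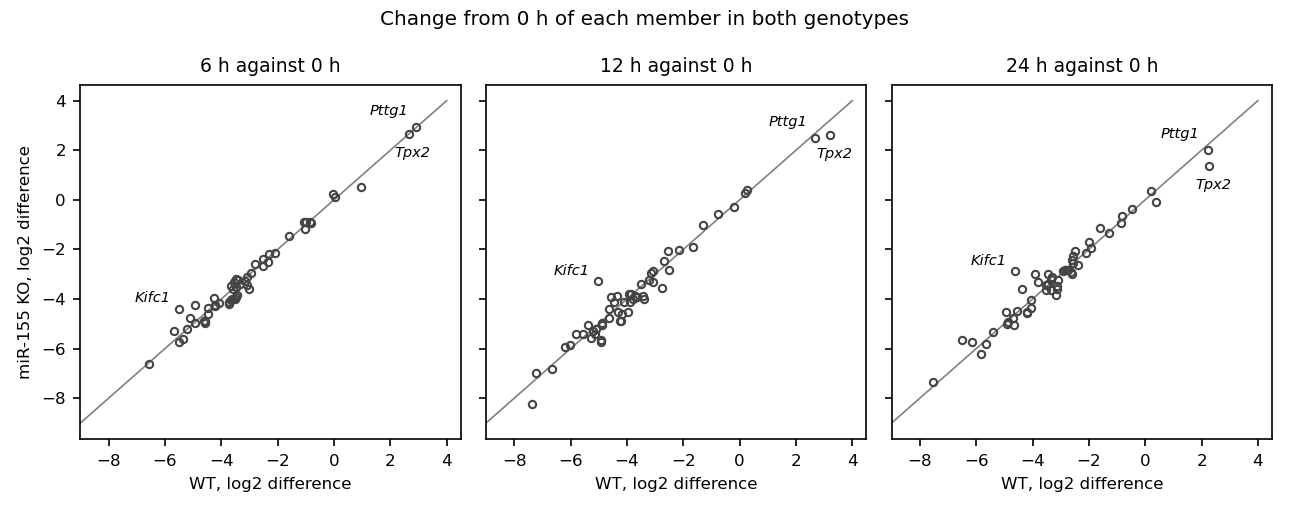
Difference from 0 h in KO (vertical axis) against that in WT (horizontal axis) for each of the 54 mitotic genes at 6, 12 and 24 h of LPS, in log2 units, with the line of equal response. Most points lie near the line, and Pttg1 and Tpx2 stand at the upper right. The median SE of a difference is 0.58.

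Other genes of the cell cycle were read from further lists, whose counts stand beside the shares of all genes given above (12.8%, 9.66% and 5.41% lower and 12.6%, 9.68% and 5.61% higher in WT at 6, 12 and 24 h). Of 55 other mitotic genes 39, 42 and 32 were lower at 6, 12 and 24 h in WT and 41, 42 and 30 in KO, with medians of -2.74, -3.19 and -2.51 and of -2.82, -3.32 and -2.45. Depdc1b changed by -5.74 ± 0.55 in WT (adjusted p = 6.43e-05) and -6.57 ± 0.55 in KO (adjusted p = 2.86e-05) at 6 h, and Pimreg, a mitotic substrate of the anaphase-promoting complex, by -5.91 ± 0.84 in WT (adjusted p = 0.000631) and -6.46 ± 0.84 in KO (adjusted p = 0.000381). Trip13, the ATPase that takes the checkpoint complex apart, was the only one of that list to pass as higher, by 1.98 ± 0.41 in WT (adjusted p = 0.00533) and 2.1 ± 0.41 in KO (adjusted p = 0.0038) at 6 h. Cdk1 itself differed by -2.74 ± 0.57 in WT (adjusted p = 0.0057) and -2.51 ± 0.57 in KO (adjusted p = 0.00876) at 6 h.

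The anaphase-promoting complex, whose activator and E2 enzyme fell, showed little change in its subunits. Of 13, 1 was lower at 6 h in each genotype, Cdc23 (-1.39 ± 0.26 in WT (adjusted p = 0.00313) and -1.39 ± 0.26 in KO (adjusted p = 0.00302)), and 0 were lower and 0 to 2 higher at 12 or 24 h, with list medians from -0.03 to 0.20. Of 18 regulators of mitotic transcription 5, 4 and 2 were lower and 2, 0 and 0 higher at 6, 12 and 24 h in WT, and 6, 3 and 2 lower and 1, 0 and 0 higher in KO. Foxm1, the forkhead factor that drives late cell-cycle genes, changed by -2.36 ± 0.26 in WT (adjusted p = 0.000143) and -2.33 ± 0.26 in KO (adjusted p = 0.000151) at 6 h and by -3.59 ± 0.26 in WT (adjusted p = 2.97e-05) and -3.25 ± 0.26 in KO (adjusted p = 6.68e-05) at 24 h. E2f7, an E2F repressor, changed by -6.44 ± 0.93 in WT (adjusted p = 0.000685) and -6.09 ± 0.93 in KO (adjusted p = 0.000906) at 6 h and Tfdp2, an E2F partner, by -3.56 ± 0.89 in WT (adjusted p = 0.0144) and -3.44 ± 0.89 in KO (adjusted p = 0.0167). Rbl1, the p107 pocket protein, rose by 3.35 ± 0.96 in WT (adjusted p = 0.0272) and 3.09 ± 0.96 in KO (adjusted p = 0.0376) at 6 h, and Nfyb differed by 0.91 ± 0.28 in WT (adjusted p = 0.0365) and 0.78 ± 0.28 in KO (adjusted p = 0.0661).

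Among 16 brakes on the cycle 2, 5 and 4 were lower and 4, 2 and 1 higher at 6, 12 and 24 h in WT, and 2, 5 and 3 lower and 3, 1 and 1 higher in KO. Cdkn1a, the p21 inhibitor of cyclin-dependent kinases, was higher at 6 h by 2.98 ± 0.56 in WT (adjusted p = 0.00317) and 3.01 ± 0.56 in KO (adjusted p = 0.00285) and at 24 h differed by 0.34 ± 0.56 in WT (adjusted p = 0.798) and 0.47 ± 0.56 in KO (adjusted p = 0.741). Gadd45b, a stress-response protein, rose by 3.75 ± 0.34 in WT (adjusted p = 4.22e-05) and 3.7 ± 0.34 in KO (adjusted p = 4.52e-05) at 6 h. Cdkn2c (p18) changed by -2.87 ± 0.39 in WT (adjusted p = 0.000545) and -3.11 ± 0.39 in KO (adjusted p = 0.000342) and Cdkn1b (p27) by -1.6 ± 0.4 in WT (adjusted p = 0.0139) and -1.59 ± 0.4 in KO (adjusted p = 0.0144), although both are inhibitors. Of 40 DNA replication genes 18, 13 and 6 were lower in WT and 20, 15 and 6 in KO, with medians of -1.66, -1.24 and -0.95 and of -1.72, -1.32 and -0.85, beside the mitotic medians of -3.48, -4.04 and -3.23 in WT. Rrm2, a subunit of ribonucleotide reductase, changed by -4.75 ± 0.74 in WT (adjusted p = 0.00112) and -4.9 ± 0.74 in KO (adjusted p = 0.000893) at 6 h. Pole2, a subunit of DNA polymerase epsilon, changed by -4.15 ± 0.66 in WT (adjusted p = 0.00129) and -5.01 ± 0.66 in KO (adjusted p = 0.000427) at 6 h and at 24 h differed by -1.06 ± 0.66 in WT (adjusted p = 0.389) and -0.72 ± 0.66 in KO (adjusted p = 0.633), which did not pass.

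The upper quartile of the probe signal lay between 291.0 and 775.7 scanner units, 56.2% to 67.6% of probes were well above background, and replicates of a group correlated at 0.9554 to 0.9734. Macrophage markers had by far the highest summed level of the marker lists (10 of 11 detected, 854 to 2910 in units of the array's 75th percentile). The 8 of 9 detected neutrophil markers summed to 0.694 to 50.6 and were higher in replicate 1 of each group, and 6 of 9 progenitor markers to 0.2 to 4.23, highest at 6 h (3.14 to 3.55 in WT and 2.37 to 4.23 in KO). At 6 h Gfi1 was higher by 9.69 in WT and 9.8 in KO on the log2 scale, while 4 of the 6 progenitor markers lay below 0 h (median -0.29 in each). The 4 of 8 detected erythroid markers moved with the mitotic genes: they summed to 4.87 to 9.23 (WT) and 5.7 to 9.84 (KO) at 0 h, to 1.79 to 2.54 and 2.31 to 2.39 at 6 h, and to 0.661 to 1.54 at 12 and 24 h. Of these, Epor and the transferrin receptor Tfrc, which dividing cells of many types also express, passed as lower in all 6 comparisons. The 4 of 5 detected endothelial markers went from 0.204 to 0.28 at 0 h to 2.71 to 5.33 (WT) and 1.95 to 6.22 (KO) at 6 h, where Kdr was higher by 4.55 and 4.37. Markers of B cells (4 of 7 detected, 0.236 to 1.11), T and NK cells (4 of 8, 0.124 to 0.528), mast cells (1 of 6, 0.00915 to 0.0588) and stromal cells (5 of 7, 0.664 to 2.52) were low on all arrays. The part of such cells in the fall was not tested.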

How the data were processed

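The deposited scanner files hold the processed intensity of each spot of 16 single-colour arrays, which Agilent Feature Extraction 10.5.1.1 background-subtracted and detrended, per the file headers. The deposited series table holds log2 values of the same arrays scaled to the 75th percentile, and its columns correlated with the log2 scanner intensity at r = 1. Here control spots (1639) and outlier spots (61 to 108 an array) were left out, the log2 intensities of a probe's spots were averaged, and each array was scaled by subtracting its 75th percentile. Of 41077 probes, 26854 were well above background on both arrays of at least 1 group, and the brightest probe per gene left 17657 genes. Positions of probes come from the scanner files (mm9), and exons and UTRs were not annotated. The number of arrays limits the precision.

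The model of limma 3.58.1 (R 4.3.3) held the means of all 8 groups (8 residual and 2.29 prior degrees of freedom), with Benjamini-Hochberg adjustment over all genes and a threshold of 0.05. Values after ± are standard errors, differences are log2, and the script was tested on simulated data. A member fell or rose where it passed. The members and lists were chosen with earlier results of these data known. Values on every array are given for the 2 members per role with the most negative mean of the 6 differences from 0 h, for every member not called lower in any or called higher, and for the 4 largest changes from 6 to 24 h, and up to 2 called genes each way were named from each further list. Same-numbered arrays share a scan session, and what they deviate by from their groups correlated at 0.4 to 0.84 (median 0.58) over the 28 pairs of groups, so replicate numbers pair the samples, and the session (replicate block) is an alternative fit. The main fit and the fits without 1 array leave the session out. The members' median SE of a difference from 0 h was 0.58 in the main fit and 0.34 with the session in it. Other alternatives changed the background correction, scaling, filter, probe choice, slide, replicates and motif search. A background correction with the local background capped at its 99th percentile was added after seeing the data.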

Additional observations from a re-analysis of the deposited data

Results flagged for a closer look

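The comparison of 24 h with 6 h of LPS gave 9 mitotic genes whose 2 times differed, by limma with Benjamini-Hochberg adjustment, in both genotypes. The values are means of the WT and KO differences on the log2 scale. Genes that were higher at 24 h than at 6 h were Cdc25b (2.11), Kif18a (1.95), Kif22 (1.93), Aurkb (1.75) and Cdca8 (1.48). Kif18a was not well above background at 6 h, which leaves its value a fold of at least 1.17 in WT and 1.04 in KO, and its sign turned with normexp on the local background (-0.11 in WT) and with that background capped (-0.22 in WT and -0.23 in KO). Those that were lower at 24 h were Kif4 (-3.85), Ccnb2 (-3.42), Ube2c (-2.46) and Mki67 (-1.69). The phosphatase Cdc25b and the cyclin Ccnb2, which act on the same kinase Cdk1, thus differed in opposite directions between these times. Groups of 2 arrays are too small to look for a single array far from the others.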

How the results depend on the processing

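Counts of called members were within 1.5 times of the reported ones except as follows. With normexp on the local background, as planned, the counts against 0 h were 13, 12 and 8 in WT at 6, 12 and 24 h and 11, 12 and 7 in KO, and 0 for 12 h against 6 h, 24 h against 12 h and 24 h against 6 h in each genotype. A few spots have a very high local background, and with it capped, a setting chosen after seeing the data, 12 h against 6 h gave 0 in both genotypes, 24 h against 12 h 0 in WT and 1 in KO, and 24 h against 6 h 8 in KO. Member medians against 0 h were then -2.04 to -2.42. With normexp as planned, without the cap, they were -2.16, -1.53 and -2.24 in WT and -2.01, -1.51 and -1.89 in KO. The main fit gave -3.48, -4.04 and -3.23 in WT and -3.56, -4.0 and -3.16 in KO, so the size of the fall depended on the background correction. The shares of all genes called with normexp are not given here. Keeping only probes well above background on all arrays left 36 members, of which 28, 30 and 27 were called in WT and 28, 30 and 26 in KO, and 2 in KO for 12 h against 6 h. Quantile normalization gave 0 for 12 h against 6 h in both and 1 for 24 h against 12 h in WT. Median scaling gave 0 for both these steps in both genotypes and 4 (WT) and 5 (KO) for 24 h against 6 h, and moved the median of all genes by up to 0.36. No filter gave 0 for 12 h against 6 h in both, 1 for 24 h against 12 h in WT and 6 for 24 h against 6 h in KO. The mean of a gene's probes gave 1 for 12 h against 6 h in WT and 1 for 24 h against 12 h in each. With slide as a term, 24 h against 12 h gave 0 in WT and 9 in KO, 24 h against 6 h 20 in WT, and 12 h against 6 h 0 in KO. The cause was not tested for the settings other than the filters, which change the genes tested.

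With the replicate block, which pairs the arrays of a session, 10 members were called for 12 h against 6 h and 10 for 24 h against 12 h in each genotype, and 20 (WT) and 25 (KO) for 24 h against 6 h. It changed no other count by over 1.5 times.

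Leaving out 1 array in turn gave 35 to 45, 40 to 47 and 30 to 43 calls in WT and 36 to 45, 40 to 48 and 30 to 40 in KO against 0 h. It gave 0 to 1 for 12 h against 6 h in both, 0 to 1 (WT) and 0 to 2 (KO) for 24 h against 12 h, and 2 to 10 (WT) and 4 to 12 (KO) for 24 h against 6 h. KO against WT stayed at 0 to 0.

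Values that changed sign and passed in at least 1 of the 2 settings were those of Bub1 with the mean of its probes, at -2.64 and -1.82 for WT at 12 and 24 h and -1.55 and -2.95 for KO at 6 and 12 h, and of Kif18a, with 0.55 (WT) and 0.42 (KO) at 12 h and -0.11 for 24 h against 6 h in WT with normexp, and -0.22 (WT) and -0.23 (KO) for 24 h against 6 h with the cap. Bub1 at 6 h in WT also turned, to -1.3 with the mean of its probes, and passed in neither (adjusted p = 0.0608 there). Of 4936 values of single members, 4694 stayed on their side of the threshold, 74 of these with a change of sign that passed in neither setting, 164 lost the call, 69 gained it and 9 changed sign as above. On the forward strand alone 48.0% of the members' start regions held TTTGAA, 54.0% held CCAAT and 26.0% held both.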

Other observations

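With the session as a term, 23 of the 54 mitotic genes were higher and 7 lower in session 2 (replicate 2) than in session 1, with a median of 0.34, where 3569 and 6087 of all genes were, with a median of -0.15. The spread between replicates of these genes thus holds a shift that runs with the scan session and the replicate number, which cannot be told apart.

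The KO arrays at 0 h differed in Kifc1, at 1.51 in replicate 1 and -0.25 in replicate 2, while those of WT stood at 1.78 and 1.95. Of the 9 genes for which no start region was matched, Ccna2, Pbk, Spc24, Aurkb, Cdc25c and Kif20a were lower in all 6 comparisons, and Tpx2 and Smc4 in none.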
